A study of Rattus norvegicus with 8 samples.

Results

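The stromal cell and matrix glycoprotein genes are 10 rat genes expressed by fibroblasts, pericytes and smooth muscle cells or secreted by them into the extracellular matrix: Pdgfra, Pdgfrb, Tgfb1, Fn1, Tnc, Sparc, Bgn, Dcn, Vim and Acta2. They were found on the array by their symbol, through probe sets annotated with that symbol and no other. The list itself was drawn up with earlier results of these data known. Of the 10 genes, 8 were measured, among 18166 genes with a single symbol in all. Acta2 and Tnc were not analysed here, since the annotation used here pairs no probe set with either symbol. The arrays held total RNA from the kidney of 10-week-old male Wistar rats, 4 arrays of medulla and 4 of cortex. All 8 carry an identical treatment label, ethylene glycol given each day and vitamin D given on alternate days, for 1 week. No array here is labelled untreated, so the comparison is medulla against cortex, and the spread between arrays of a region is described beside it. The arrays under this label differed widely. Havcr1, which encodes the tubule injury marker KIM-1, measured 4.54, 4.80, 8.95 and 11.32 log2 units on medulla replicates 1 to 4 and 4.59, 5.15, 7.54 and 11.27 on cortex replicates 1 to 4. Whether all arrays had the same exposure is not known beyond the label, and the means and ranges below are those of arrays so labelled. The labels name no animal, so it is not known which medulla and cortex arrays came from the same rat, and nothing says that the arrays of a region came from separate rats. The p-values therefore rest on the array-to-array spread alone, which may be technical.

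In the kidney, fibroblasts and pericytes lie between the tubules and capillaries and make the interstitial matrix. Platelet-derived growth factors act on them through the receptors encoded by Pdgfra and Pdgfrb, and transforming growth factor beta drives matrix synthesis and the change of fibroblasts into contractile myofibroblasts. Fibronectin, SPARC and the proteoglycans biglycan and decorin bind collagen or growth factors in the matrix. Vimentin is the intermediate filament of mesenchymal cells, and injured tubule cells also make it. Ethylene glycol is metabolised to oxalate and is given to rats to produce calcium oxalate crystals in the kidney.

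Values are log2 of the intensity the authors deposited, already normalized between arrays, whose array medians lay between 34.1 and 34.7 intensity units. The replicate 4 arrays stood apart. Across probe sets, which are not independent replicates, medulla replicate 4 correlated at a Pearson r of 0.9887 with cortex replicate 4, against 0.9703 to 0.9773 with the other medulla arrays. Those other medulla arrays correlated at 0.9792 to 0.9924 among themselves, so replicate 4 was set off less clearly in medulla than in cortex. Cortex replicate 4 correlated at 0.9702 to 0.9786 with the other cortex arrays, which correlated at 0.9882 to 0.9937 among themselves. Results are therefore also given without both. Medulla replicate 2 correlated at 0.9935, 0.9947 and 0.9918 with cortex replicates 1 to 3, and at 0.9924, 0.9792 and 0.9703 with medulla replicates 1, 3 and 4. The region labels were checked on marker genes. Slc14a2, a urea transporter gene of the inner medulla, lay between 6.15 and 7.42 in medulla and between 4.80 and 5.88 in cortex, without overlap. Of all genes, 1.1% lay wholly higher in medulla. Slc14a2 was the only 1 of the 6 thick limb and collecting duct markers to do so. Umod, Slc12a1, Aqp2, Aqp3 and Avpr2 overlapped, with Aqp2 between 8.12 and 10.78 in medulla and between 8.03 and 9.72 in cortex. The podocyte gene Nphs1 also overlapped, between 5.87 and 6.73 in medulla, highest on replicate 2, and between 6.23 and 7.15 in cortex. Lrp2, the endocytic receptor of the proximal tubule, was as bright as 10.38 to 10.75 in medulla and 10.68 to 10.82 in cortex. Signal of the proximal tubule was thus high in all labelled medulla arrays. The stromal markers were present. All values of the 8 measured genes lay above 5.99, clear of the 30th percentile of each array's probe sets, which was at most 4.58.

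Promoter sequences are shown for the 4 measured genes that have an entry in the table used. Their patterns were not all alike. Pdgfra was highest on medulla replicate 3 and cortex replicate 1. Tgfb1 and Vim were highest on replicate 4 of both regions, and Sparc had the narrowest range of the 8 in medulla. The sequences are the 250 bases before the annotated start in RefSeq, build GRCr8, written 5′ to 3′ on the strand of the gene, with motif matches in capitals. Of the 10 genes, 6 have an entry. The lines below lie at chr14:33408517-33408766 (minus strand) for Pdgfra, chr1:90324062-90324311 (plus) for Tgfb1, chr17:81577011-81577260 (plus) for Vim and chr10:40038817-40039066 (minus) for Sparc.
Pdgfra: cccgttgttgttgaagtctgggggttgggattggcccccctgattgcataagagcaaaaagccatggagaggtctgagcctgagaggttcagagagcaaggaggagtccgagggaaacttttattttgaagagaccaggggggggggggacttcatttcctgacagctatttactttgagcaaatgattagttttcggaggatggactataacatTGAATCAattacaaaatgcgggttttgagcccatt
Tgfb1: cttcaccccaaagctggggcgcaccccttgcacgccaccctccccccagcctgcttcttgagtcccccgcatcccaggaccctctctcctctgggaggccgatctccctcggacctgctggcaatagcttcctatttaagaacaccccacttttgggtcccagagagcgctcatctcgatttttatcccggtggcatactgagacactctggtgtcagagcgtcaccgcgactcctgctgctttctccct
Vim: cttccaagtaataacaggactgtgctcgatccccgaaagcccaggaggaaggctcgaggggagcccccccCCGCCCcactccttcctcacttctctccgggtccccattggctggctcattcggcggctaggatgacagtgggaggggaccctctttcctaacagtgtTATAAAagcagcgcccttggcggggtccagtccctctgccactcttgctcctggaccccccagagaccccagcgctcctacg
Sparc: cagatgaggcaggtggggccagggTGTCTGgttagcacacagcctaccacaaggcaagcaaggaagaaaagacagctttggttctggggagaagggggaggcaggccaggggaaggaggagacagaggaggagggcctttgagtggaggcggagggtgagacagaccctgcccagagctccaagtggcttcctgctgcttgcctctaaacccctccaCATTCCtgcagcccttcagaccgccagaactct
The letters searched were TGANTCA for AP-1, TGACGTCA for the cAMP response element, CAGACA for SMAD, GGAATG for TEAD and GGGCGG for SP1, each on both strands, the CArG box by name, and TATAAA on the sense strand alone. No pair of these matches overlapped in the windows shown. Pdgfra held the AP-1 letters, found in 6.34% of all 33469 promoters of this length. Vim held the SP1 letters, found in 30.5% of promoters, and TATAAA, found in 8.06%. Sparc held the SMAD letters, found in 17.2%, and the TEAD letters, found in 12.1%. The Tgfb1 window held none of the letters searched. The cAMP response element, in 1.59% of promoters, and the CArG box, in 1.5%, matched in none of the 4 windows. A match describes the letters and is not a binding site.

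The growth factor receptor genes differed in how widely they varied. Pdgfra, a receptor that marks interstitial fibroblasts (probe set 17694084), measured 7.78, 6.72, 8.54 and 8.06 log2 units on medulla replicates 1 to 4, against 7.62, 7.09, 6.56 and 7.20 on cortex replicates 1 to 4. Medulla replicate 3 was the highest array and cortex replicate 3 the lowest, and the regions overlapped, since medulla replicate 2 lay below 3 of the cortex arrays. The mean was 7.77 ± 0.77 (SD, n = 4) in medulla and 7.12 ± 0.44 in cortex. The difference of 0.65 ± 0.40 (SE), or 1.57-fold, had a 95% interval from -0.27 to 1.57, with an adjusted p of 0.876 by limma. In bulk tissue, fewer cells of a type and less RNA per cell cannot be told apart, here and in the results below.

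Pdgfrb, the receptor of pericytes and mesangial cells (probe set 17723589), varied less and had the smallest p of the 8 genes. It measured 7.50, 7.02, 7.36 and 7.33 in medulla and 7.15, 6.94, 6.59 and 6.80 in cortex. Of the medulla arrays only replicate 2 lay within the span of the cortex arrays. The difference was 0.43 ± 0.14 (SE), with a 95% interval from 0.11 to 0.76. It did not pass the test over all genes (limma adjusted p = 0.875, unadjusted 0.0158), and the two-sided exact permutation test gave an unadjusted p of 0.0571. With 4 against 4 arrays that test can go no lower than 0.0286.

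Tgfb1 encodes the ligand of the transforming growth factor beta receptors (probe set 17614474). It measured 6.66, 6.46, 6.66 and 7.37 in medulla, against 6.60, 6.38, 6.00 and 6.87 in cortex. The replicate 4 array was the highest in each region, and the regions overlapped. The difference was 0.33 ± 0.24 (SE), with a 95% interval from -0.24 to 0.89 and a limma adjusted p of 0.878. Without medulla replicate 4 it was 0.13, and without cortex replicate 4 it was 0.46.

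Among the secreted matrix glycoproteins, Fn1 was the most variable. It encodes fibronectin, on which cells assemble and hold matrix through integrins (probe set 17865301). It measured 8.79, 7.77, 8.995 and 9.69 in medulla and 8.45, 7.93, 7.06 and 8.71 in cortex. Both regions spread over more than a 3-fold range, with medulla replicate 4 highest and cortex replicate 3 lowest of all 8. The mean was 8.81 ± 0.79 (SD, n = 4) in medulla and 8.04 ± 0.73 in cortex. Its difference of 0.77 ± 0.48 (SE), or 1.71-fold, was the largest of the 8 genes, with a 95% interval from -0.35 to 1.89 and a limma adjusted p of 0.877. Without cortex replicate 3 the Fn1 difference was 0.44, and without both replicate 4 arrays it was 0.70 ± 0.46 (SE).

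Sparc, which encodes a collagen-binding matrix protein also called osteonectin (probe set 17656316), was nearly flat in medulla. Its values were 9.27, 9.30, 9.37 and 9.45 there, against 9.23, 9.42, 8.90 and 9.01 in cortex. The medulla values had an SD of 0.078 and the cortex values an SD of 0.23, and the regions overlapped through cortex replicate 2. The difference was 0.21 ± 0.11 (SE), or 1.16-fold, with a 95% interval from -0.05 to 0.47 and a limma adjusted p of 0.875. It was the smallest of the 8.

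Biglycan and decorin are closely related small leucine-rich proteoglycans that bind collagen fibrils and transforming growth factor beta. Bgn (probe set 17875011) measured 9.9985, 9.32, 10.16 and 10.68 in medulla, against 10.07, 9.46, 8.96 and 9.45 in cortex. Dcn (probe set 17827785) measured 9.18, 8.25, 9.60 and 9.18 in medulla, against 9.56, 8.77, 8.15 and 7.95 in cortex. Both genes were low on medulla replicate 2 and high on cortex replicate 1, and they parted on the replicate 4 arrays. Cortex replicate 4 was the lowest cortex array for Dcn but lay 0.03 under the cortex mean for Bgn, and medulla replicate 4 was the highest medulla array for Bgn but not for Dcn. The regional difference was 0.55 ± 0.32 (SE) for Bgn, with a 95% interval from -0.20 to 1.31, and 0.44 ± 0.41 for Dcn, with an interval from -0.51 to 1.40. Neither passed, with limma adjusted p-values of 0.876 for Bgn and 0.902 for Dcn.

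The same parting is seen in the gap between Bgn and Dcn, taken within each array. Bgn minus Dcn was 0.82, 1.07, 0.56 and 1.51 log2 units on medulla replicates 1 to 4, and 0.51, 0.69, 0.81 and 1.51 on cortex replicates 1 to 4. The size of the gap compares different probes and has no meaning, but its change from array to array does, and it was widest on replicate 4 in both regions. Ogn, Prelp, Aspn, Lum and Fmod, other genes of this family, were compared with Bgn and Dcn, a choice made after values were seen. The array was not searched for the whole family. Ogn, which encodes osteoglycin, measured 8.28, 8.03, 8.82 and 7.06 in medulla and 8.86, 8.37, 7.54 and 6.66 in cortex, lowest on the replicate 4 array of each region. Replicate 4 minus the mean of the other arrays was -1.32 for Ogn in medulla and -1.59 in cortex. The corresponding values were -0.96 and -1.42 for Prelp and -1.05 and -0.75 for Aspn. For Dcn they were 0.17 in medulla and -0.88 in cortex, and for Bgn 0.86 in medulla and -0.04 in cortex. Of these 7 genes, Bgn and Dcn included, 5 had a 2-fold range in both regions. Lum and Fmod had a range under 0.5 in each, and Lum lay between 4.25 and 4.38 on all arrays, below the lower quartile of the probe sets.

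**Figure D1:**
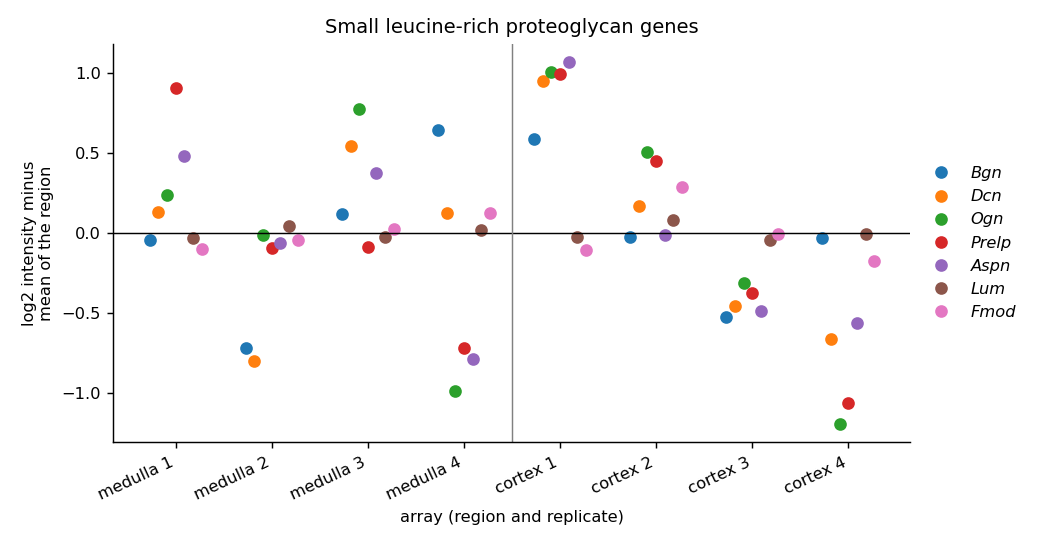
Deviation of 7 small leucine-rich proteoglycan genes on each array, as log2 intensity minus the mean of the 4 arrays of that region (vertical axis), by array (horizontal axis). Each point is 1 gene on 1 array. On medulla replicate 4 Bgn lies at 0.64 while Ogn lies at -0.99, and on cortex replicate 4 Bgn lies at -0.03 while Ogn lies at -1.19.

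Vim, the vimentin gene (probe set 17717148), measured 8.57, 8.39, 8.85 and 9.73 in medulla, against 8.55, 8.36, 8.28 and 8.63 in cortex. Medulla replicate 4 stood above all other arrays, while the cortex values kept within a range of 0.35. The mean was 8.89 ± 0.59 (SD, n = 4) in medulla and 8.46 ± 0.16 in cortex. The difference was 0.43 ± 0.27 (SE), with a 95% interval from -0.21 to 1.07 and a limma adjusted p of 0.877, and it was 0.15 without medulla replicate 4.

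**Figure D2:**
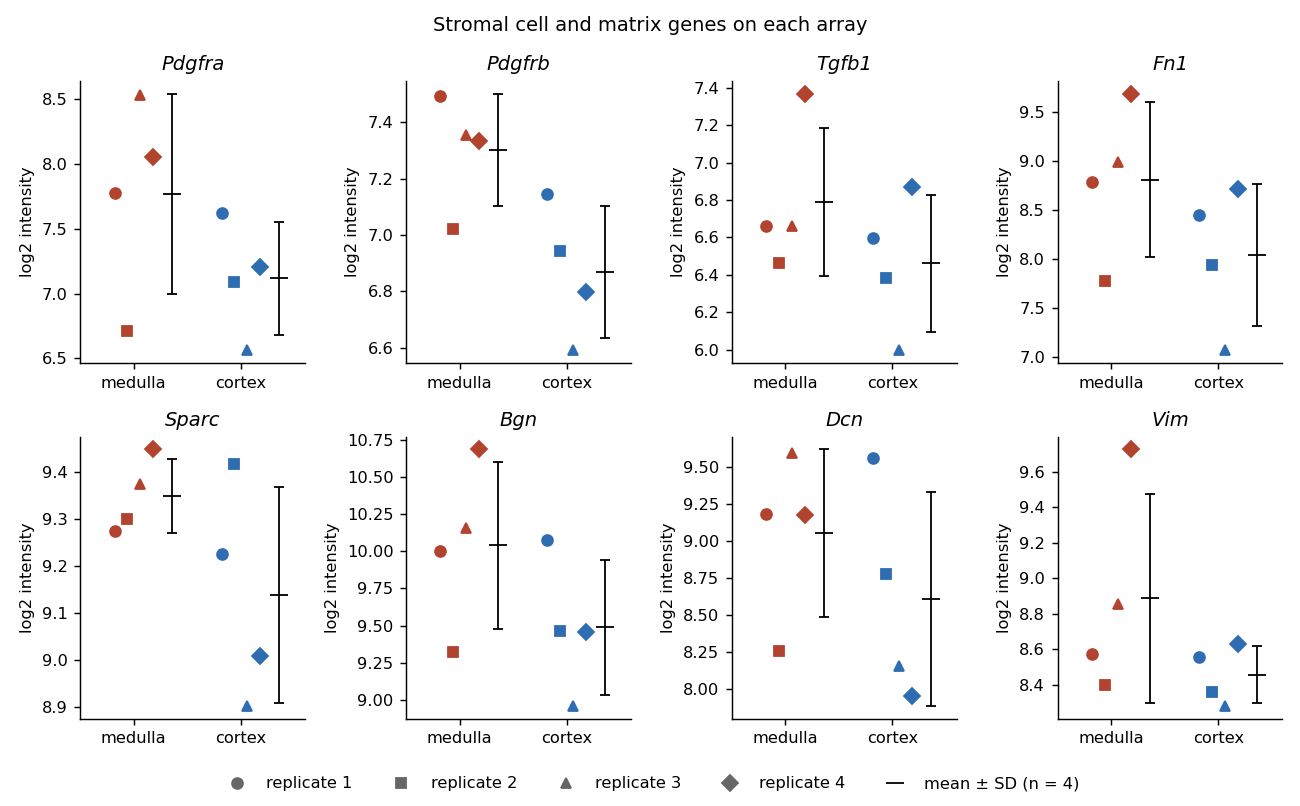
Log2 intensity (vertical axes, each with its own scale) of the 8 measured stromal cell and matrix genes on the 4 medulla arrays (red) and the 4 cortex arrays (blue). The marker shape gives the replicate number, and the black bar gives the mean ± SD (n = 4). The regions overlap for every gene shown.

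Taken over the 8 genes, the medulla mean was higher for each of them, and no difference passed the test. limma called 0 of 8, and over all 18166 genes it called 0% higher in medulla and 0% lower. Without adjustment, 1 of the 8 (Pdgfrb) had a p under 0.05 and was higher in medulla, against 2.77% of all genes, while 0 were lower, against 2.58%. That count was 4 without medulla replicate 2, where 1696 of the 18166 genes had a p under 0.05 in either direction. It was 2 without cortex replicate 2 (594 of all genes), 2 after quantile normalization (946) and 0 without both replicate 4 arrays (918). With all arrays, 971 of all genes had such a p. All 8 of 8 had a positive difference, as did 45.8% of all genes. The median difference was 0.44 over the 8 genes and -0.01 over all genes. In 0 of the 8 genes did the regions fail to overlap, against 1.1% of all genes that lay wholly higher in medulla and 1.74% that lay wholly lower. The exact permutation p, two-sided and unadjusted, lay between 0.0571 for Pdgfrb and 0.343 for Dcn. The genes are read on the same 8 arrays, so that their shared sign is not 8 separate observations.

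The size of the difference depended on which arrays were in it. Without medulla replicate 2 it was 1.00 for Pdgfra, 1.12 for Fn1 and 0.71 for Dcn. Without medulla replicate 3 it was 0.40 for Pdgfra and 0.26 for Dcn. Without medulla replicate 4 it was 0.48 for Fn1 and 0.34 for Bgn. Without cortex replicate 3 it was 0.13 for Sparc, 0.17 for Tgfb1 and 0.29 for Dcn. The Dcn difference was 0.76 without cortex replicate 1 and 0.22 without cortex replicate 4. With array weights and all arrays kept, the difference was 0.12 for Sparc and 0.28 for Dcn. Without both replicate 4 arrays the differences ran from 0.13 for Sparc to 0.70 for Fn1, with 0.18 for Dcn, 0.21 for Vim, 0.33 for Bgn and 0.40 for Pdgfrb.

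**Figure D3:**
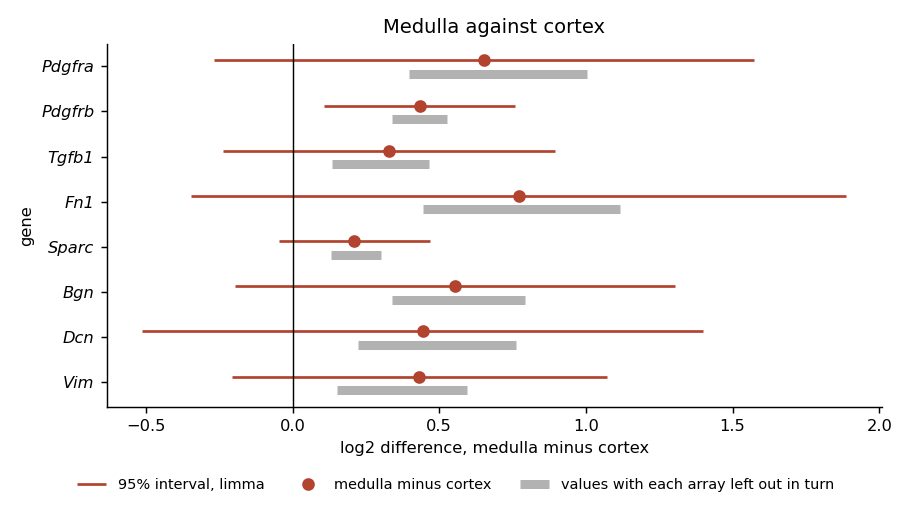
Log2 difference between medulla and cortex (horizontal axis) for the 8 genes. Red points are the differences with their 95% interval from limma, and grey bars span the values obtained with each of the 8 arrays left out in turn. The interval crosses 0 for all genes but Pdgfrb, and all grey bars lie above 0.

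Within a region, arrays that carry an identical label differed widely for these genes. A 2-fold range between the highest and the lowest array, the size of change on which the study's design text selects genes in each region without naming the arrays it compares, was reached in both regions by 4 of the 8 genes, namely Pdgfra, Fn1, Bgn and Dcn, against 2.21% of all genes. In medulla 5 of the 8 reached it, with Vim, against 3.8% of all genes, and in cortex 4 did, against 3.6%. The median log2 range was 1.34 in medulla and 0.96 in cortex for the 8 genes, against 0.25 in medulla and 0.21 in cortex for all genes. All genes include dim ones, while the 8 genes are brighter. With the dimmest 30% removed, 3.16% of the genes left had a 2-fold range in both regions, with the count of the 8 still at 4. Many of the genes left are still dimmer than the 8, so this does not match them in brightness. Fn1 had the widest ranges, 3.77-fold in medulla and 3.14-fold in cortex. Pdgfra ranged over 3.53-fold in medulla and 2.08-fold in cortex. Sparc ranged over 1.13-fold in medulla and 1.43-fold in cortex.

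**Figure D4:**
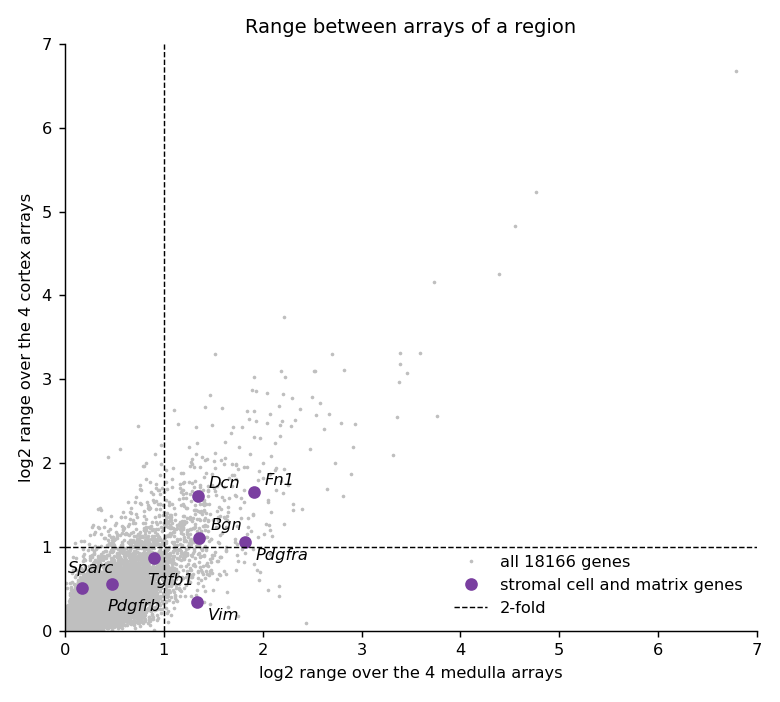
Log2 range between the highest and the lowest array over the 4 medulla arrays (horizontal axis) and the 4 cortex arrays (vertical axis). Grey points are all 18166 genes, purple points the 8 stromal cell and matrix genes, and dashed lines mark a 2-fold range. Pdgfra, Fn1, Bgn and Dcn lie past both lines, and Vim lies past the medulla line alone.

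The arrays at the low end were mostly the same. Medulla replicate 2 was the lowest medulla array for 7 of the 8 genes, all but Sparc, and for 22.9% of all genes. Cortex replicate 3 was the lowest cortex array for 7 of the 8, all but Dcn, and for 20.8% of all genes. Both held for 6 of the 8 genes and for 7.29% of all genes. All 8 genes lay under their region's mean on both of these arrays. The median deviation of the 8 genes from the region mean was -0.60 on medulla replicate 2 and -0.46 on cortex replicate 3, where the median over all genes was 0.00.

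The arrays at the high end differed between genes. On medulla replicate 4, Tgfb1, Fn1, Sparc, Bgn and Vim had their highest medulla value, 5 of the 8, against 27.1% of all genes. On cortex replicate 4, Tgfb1, Fn1 and Vim were highest, 3 of the 8, against 32.1%. These 3 were highest on replicate 4 in both regions, as were 17% of all genes. Cortex replicate 1 was the highest cortex array for Pdgfra, Pdgfrb, Bgn and Dcn, 4 of the 8, against 24.1% of all genes. On medulla replicate 3, Pdgfra and Dcn had their highest medulla value, 2 of the 8, against 24.5%. Pdgfrb alone was highest on medulla replicate 1, as were 21.4% of all genes.

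The 8 genes had 9 ranges of at least 2-fold over both regions. Replicate 4 was the highest or the lowest array in 5 of them, and 7 of the 9 were still 2-fold without it, the exceptions being Bgn and Vim in medulla. Without both replicate 4 arrays, 3 of the 8 genes still had a 2-fold range in both regions, as did 0.248% of all genes. Without medulla replicate 2, 0 of the 8 did, against 1.84% of all genes. Without cortex replicate 1 there was 1, against 1.85%, and without cortex replicate 3 there was 1, against 2.01%. The medulla range of Pdgfra was 0.76 log2 units without medulla replicate 2, against 1.82 with all arrays, and that of Dcn was 0.42 against 1.34. The medulla ranges of Tgfb1 and Vim were 0.20 and 0.46 without medulla replicate 4, against 0.90 and 1.33 with it.

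**Figure D5:**
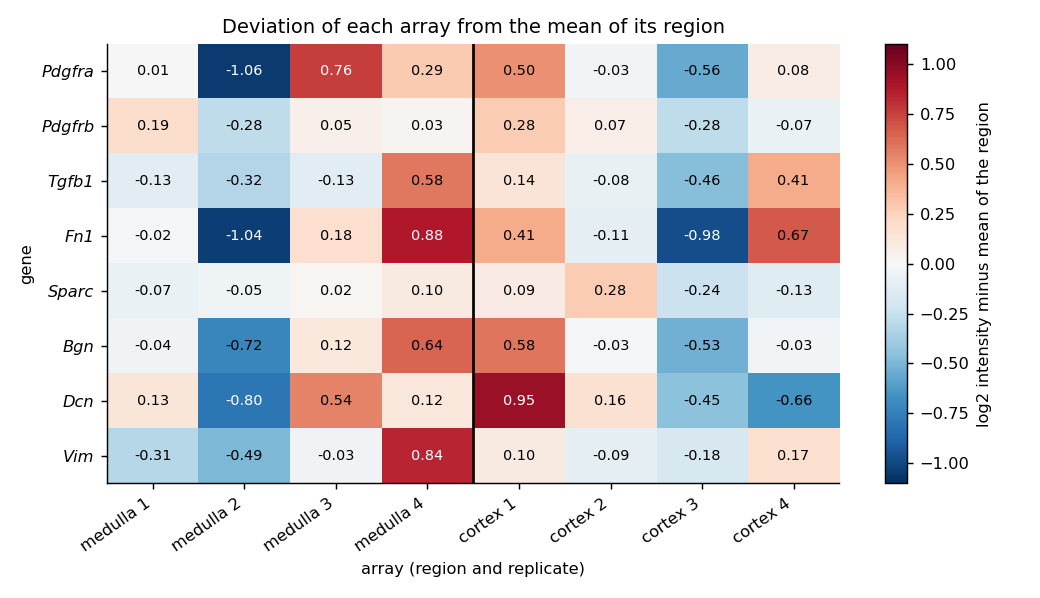
Log2 intensity minus the mean of the region's 4 arrays (colour and printed number) for the 8 genes (rows) on the 4 medulla and 4 cortex arrays (columns). Medulla replicate 2 and cortex replicate 3 are below the mean in all rows, and medulla replicate 4 is above it in all rows, from 0.03 for Pdgfrb to 0.88 for Fn1.

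The patterns of the genes were set against each other by the root mean square difference of their deviations over the 8 arrays, where 0 means identical deviations. Pdgfrb and Sparc were closest at 0.16, and Tgfb1 and Vim came next at 0.19. Fn1 and Dcn were farthest apart at 0.63. Among all other genes, the one nearest to Bgn was Col12a1, a collagen chain gene, at 0.092. Next to Bgn came Nav3 and Fos, both at 0.15. Nearest to Pdgfra were Cp, the ceruloplasmin gene, at 0.12, Sfrp1, which encodes a secreted Wnt inhibitor, at 0.18, and the adhesion gene Vcam1 at 0.20. Nearest to Fn1 were the chemokine gene Ccl2 and the matricellular gene Ccn1, both at 0.21, and Tspan8 at 0.22. Nearest to Vim were Cep55, a cytokinesis gene, at 0.11, and Gas2l3 and Wdhd1 at 0.12. Nearest to Dcn were Plet1 at 0.13, Alx1 at 0.16 and Cd4 at 0.17. These are descriptions over 8 arrays, and among 18166 genes some lie close by chance.

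Other genes of the same pathways, come from lists drawn up with earlier results of these data known. Of the platelet-derived and transforming growth factor genes, 21 of 24 were measured, 0 were called in either direction by limma, 12 had a positive difference, and the median difference was 0.05. Without adjustment, 2 of them had a p under 0.05, both higher in medulla, against 2.77% of all genes. These were Ltbp1 and Ltbp3, which encode proteins that hold latent transforming growth factor beta in the matrix. Ltbp1 differed by 0.62 ± 0.18 (SE), and Ltbp3 by 0.15 ± 0.04 with no overlap of the regions, as 1.1% of all genes, and neither passed (limma adjusted p = 0.875 for both). Ccn1, a matricellular gene, had no regional difference beyond its error, at -0.07 ± 0.48 (SE). It ranged over 2.05 log2 units in medulla and 1.56 in cortex, and measured 8.45 on medulla replicate 4 and 8.28 on cortex replicate 4, the highest of each region. The ligand gene Pdgfb was highest on the same arrays, at 7.31 in medulla and 7.51 in cortex. The ligand gene Pdgfa was not, at 6.43 on medulla replicate 4, the lowest there, and 6.37 on cortex replicate 4.

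Of the other matrix glycoprotein and proteoglycan genes, 21 of 25 were measured, 0 were called, 14 had a positive difference, and the median was 0.19. Vcan, the large proteoglycan versican, differed by 0.66 ± 0.22 (SE) and Nid2, a basement membrane nidogen, by 0.45 ± 0.16, without passing (limma adjusted p = 0.875 for both). Mgp, the matrix Gla protein gene, differed by 0.66 ± 0.46 (SE). The differences of Vcan, Mgp and Ltbp1 were larger than those of most of the 8 genes. Of 10 measured receptor genes for fibronectin and tenascin, 9 had a positive difference with a median of 0.15, and 0 were called. Sdc1, the syndecan that carries heparan sulphate, lay between 6.38 and 6.83 in medulla and between 6.09 and 6.38 in cortex, with a difference of 0.35 ± 0.11 (SE). Its lowest medulla value, 6.378, and its highest cortex value, 6.377, were almost equal. The integrin gene Itgb6 measured 8.78 on medulla replicate 4 and 8.89 on cortex replicate 4, the highest of each region. Of 12 measured smooth muscle and pericyte genes, 10 were positive with a median of 0.11 and 0 called. Abcc9, the potassium channel subunit of pericytes, differed by 0.48 ± 0.18 (SE). Tagln, which encodes the smooth muscle protein transgelin, measured 8.68 on medulla replicate 4, where the other medulla arrays lay between 7.32 and 7.62. Rgs5, a pericyte gene, was lowest on replicate 4 of each region, at 6.90 in medulla and 6.10 in cortex. Of 12 fibroblast genes, 8 were positive with a median of 0.04 and 0 called. Without adjustment, Pi16 alone had a limma p under 0.05 and was lower in medulla, against 2.58% of all genes. The Pi16 difference was -0.27 ± 0.10 (SE). Dpt, the dermatopontin gene, was lowest on replicate 4 of each region, at 6.59 in medulla and 6.70 in cortex, and S100a4 differed by 0.60 ± 0.29 (SE). Fap, a gene of activated fibroblasts, lay between 4.31 and 4.47 in medulla and 4.32 and 4.44 in cortex, near the low end of the arrays.

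Markers of other cells moved with some of these arrays, and their part in the results above was not tested. The 11 injured tubule markers had a mean deviation from the region mean of -0.50, -0.73, 0.23 and 1.00 on medulla replicates 1 to 4, and of -0.41, -0.47, -0.11 and 0.99 on cortex replicates 1 to 4, with a summed intensity between 1677 and 12031 units in medulla and between 1557 and 10216 in cortex. Havcr1 (values above) and Clu, the clusterin gene, moved most among them, Havcr1 over a range of 110.4-fold in medulla and 102.4-fold in cortex. Clu measured 9.22, 8.61, 11.25 and 12.20 in medulla and 8.78, 8.64, 9.99 and 11.95 in cortex, and Spp1, the osteopontin gene, was also highest on replicate 4 of each region. Sox9, Krt19 and Krt20 ranged over less than 2-fold in each region. Krt20 stayed between 4.31 and 4.44 on all arrays, below the lower quartile. The 9 leukocyte markers had mean deviations of -0.18, -0.21, 0.04 and 0.34 in medulla and of 0.16, -0.05, -0.24 and 0.13 in cortex. That mean was lowest on medulla replicate 2 and cortex replicate 3, but not each marker was. In medulla all but Cd3e, Aif1 and Cd163 were lowest on replicate 2. In cortex Ptprc, Cd68, Lyz2, Csf1r and Aif1 were lowest on replicate 3, while Cd74, Cd3e, Itgam and Cd163 were lowest on other arrays. The summed intensity of the leukocyte markers lay between 1894 and 2772 units in medulla and between 1851 and 2418 in cortex. The lowest cortex sum was on replicate 2, with 1876 on replicate 3. Lyz2, the lysozyme gene, lay between 8.61 and 9.78 in medulla and between 8.01 and 9.18 in cortex. Cd3e and Cd163 lay between 4.50 and 4.71 on all arrays, near the low end. The 6 measured endothelial markers, of 9 listed, had mean deviations of 0.21, 0.00, 0.05 and -0.26 in medulla and of 0.38, 0.15, -0.14 and -0.40 in cortex, lowest on the replicate 4 arrays. Their summed intensity was 1094 to 1615 units in medulla and 813 to 1470 in cortex. Pecam1 and Kdr were among those not analysed here. Podocyte markers, 4 of 6 measured, deviated by 0.48 on medulla replicate 2 and by 0.33 on cortex replicate 3, the highest of each region, with summed intensities of 508 to 869 units in medulla and 617 to 995 in cortex. Proximal tubule markers had a mean deviation of 0.26 on medulla replicate 2, the highest there, and of -0.38 on cortex replicate 1, the lowest there. They summed to between 4346 and 6401 units in medulla and between 5477 and 7295 in cortex. Markers of the thick limb and collecting duct summed to between 3169 and 8429 units in medulla and between 2512 and 7509 in cortex, with mean deviations of -0.82 on medulla replicate 4 and -0.89 on cortex replicate 4. The 6 measured urothelial markers of 7 had a mean deviation of 0.60 on medulla replicate 1, with sums of 227 to 474 units in medulla and 190 to 212 in cortex. Fat and muscle markers, 5 of 6 measured, summed to between 197 and 229 units in medulla and between 214 and 235 in cortex. By limma 0 genes of these 8 marker lists were called. The median regional difference was 0.27 for the injured tubule markers and for the endothelial markers, 0.14 for the leukocyte markers, 0.35 for the urothelial markers and 0.52 for those of the thick limb and collecting duct. It was -0.44 for the podocyte markers, -0.45 for the proximal tubule markers and -0.06 for the fat and muscle markers, where the median over all genes was -0.01.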

How the data were processed

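Gene expression was read on Affymetrix whole-transcript arrays from biotin-labelled targets of kidney RNA, per the labels' protocols. The authors deposited a table of linear intensity per probe set. The submitters' processing notes name Affymetrix Expression Console and RMA, with versions not given in the sources used here. Log2 was taken of the deposited intensity with no pseudocount. Of 29870 probe sets, 18511 carried 1 symbol in the platform annotation, 575 several and 10784 none here. For 291 genes with several probe sets the brightest on average was kept, which left 18166 genes. No dim gene was removed. limma 3.58.1 in R 4.3.3 compared the regions over all genes with Benjamini-Hochberg adjustment, and calls needed an adjusted p under 0.05 and a 2-fold change. The fit was tested on simulated data with known changes and independent noise for each gene. Shifts shared by many genes of an array were not part of that test. Replicates are numbered within a region in accession order, which pairs no arrays. The exact permutation test used all 70 splits.

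The 10 genes and the 13 other lists were chosen with earlier results of these data known. The genes marked for naming were all members, from each list up to 3 with the widest smaller regional range and up to 2 with the smallest p, and the 3 nearest in pattern to each gene with a 2-fold range. The text gives all members and nearest genes and only some of the list genes so marked, chosen with their values known. Mgp, Fap, Krt19, Krt20, Sox9, Cd3e, Cd163 and the small leucine-rich proteoglycans compared with Bgn and Dcn were named after their values were seen. Detection calls were not used. Precision is limited by there being 4 arrays in a region.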

Additional observations from a re-analysis of the deposited data

Results flagged for a closer look

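No value of the 8 genes lay far enough from the others of its region to pass Dixon's test for an outlying value. Over 16 sets of 4 arrays (8 genes in 2 regions), the largest gap divided by the range was 0.782, for Tgfb1 in medulla, where replicate 4 was the highest array, and it stayed under the 5% critical value.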

How the results depend on the processing

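The 8 regional differences were positive in all 96 values recomputed with a setting that could change them (12 alternatives each: quantile normalization, median centring, array weights, each of the 8 arrays left out, and both replicate 4 arrays left out, the last chosen after the data were seen). Averaging probe sets, removing dim genes and a trended robust prior leave these differences as they are and could change only p. None of the 8 was called under any alternative, or with no fold threshold, and their adjusted p by limma lay between 0.488 and 1.00. Over all genes limma called 0 throughout, with the smallest adjusted p, 0.0995, without medulla replicate 2. With all arrays 971 genes had an unadjusted p under 0.05, with 509 without cortex replicate 3, 594 without cortex replicate 2, 1492 without cortex replicate 1, 1696 without medulla replicate 2, 634 without dim genes and 1535 with array weights. The number of genes with a 2-fold range in both regions, 4 of 8, lay between 0 and 4 with single arrays left out. It was 0 without medulla replicate 2, against 1.84% of all genes. It was 1 without cortex replicate 1 and 1 without cortex replicate 3, against 1.85% and 2.01%. A 1.5-fold range was reached in both regions by 5 of the 8, against 8.12%, and a 3-fold range by 1, against 0.528%. Of 112 recomputed ranges that the setting could change, 15 moved by at least 1 SD, each with arrays left out. No paired analysis was possible because the labels give the regions no shared replicate numbers. Values near the low end of the arrays, as for Lum, Fap and Krt20, limit any fold.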
